A study of Mus musculus with 28 samples.

Results

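Epithelial cells that take on mesenchymal features lose the adhesion protein that joins them to their neighbours and gain motility, matrix and cytoskeletal proteins. A small set of transcription factors drives this programme, and 10 genes that stand for it were followed here out of 17097 genes measured. They were chosen by name: the factors Zeb1, Zeb2, Snai1, Twist1, Twist2 and Prrx1, the cadherins Cdh1 and Cdh2, and the effectors Vim and Fn1. Each gene was read from the probe set that names it alone and had the highest mean over the 28 arrays, and further probe sets of a gene served as a check. Levels are log2 values of that probe set, so a difference of 1 is a doubling, and levels of different probe sets cannot be set against each other.

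Zeb1, Zeb2 and Snai1 are zinc finger proteins that bind E-box sequences and repress Cdh1, the gene of E-cadherin. Twist1 and Twist2 are basic helix-loop-helix factors and Prrx1 is a homeobox factor of mesenchyme, and all of these also act in normal connective tissue. Cdh2 encodes N-cadherin, Vim the intermediate filament vimentin and Fn1 the matrix protein fibronectin. In the normal gland the basal, myoepithelial layer shares contractile and matrix genes with mesenchyme, while the luminal layer lines the ducts.

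Tumour cells came from K8CREERT2/PIK3CA-H1047R/p53flox/flox/RosaYFP mice (2 arrays, called p53-deleted tumours), from K5CREERT2/PIK3CA-H1047R/RosaYFP mice (3 arrays, K5-PIK tumours) and from K8CREERT2/PIK3CA-H1047R/RosaYFP mice (7 arrays, K8-PIK tumours). Pre-tumour cells carrying PIK3CA-H1047R, a constantly active PI3-kinase subunit, were YFP+ basal and luminal cells of K5CREERT2 mice at 10 months and of K8CREERT2 mice at 8 weeks after tamoxifen (K5-PIK and K8-PIK cells). Normal YFP+ cells without the oncogene were basal cells of K5CREERT2/RosaYFP mice and luminal cells of K8CREERT2/RosaYFP mice, each at both times (YFP cells). Every sorted group had 2 arrays. All females received 3 injections of 5 mg tamoxifen from 4 to 5 weeks of age, K8CREERT2 recombines in luminal and K5CREERT2 in basal cells, and every animal carried RosaYFP. K8-PIK basal and K5-PIK luminal cells therefore differ from YFP cells of their gate in both driver and oncogene, and the 2 cannot be told apart in those contrasts. YFP basal and YFP luminal cells also differ in driver, so layer and driver cannot be told apart between them. A basal-luminal difference within K5-PIK or K8-PIK cells is of a single driver, while that within YFP cells spans both.

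Nothing in the labels ties the replicates to different animals, so p-values measure the spread between these arrays, whose small number limits the precision. The gates held in normal cells: between YFP basal and YFP luminal cells at 8 weeks the basal gene Krt5 differed by 3.69 ± 0.32 and the luminal factor Foxa1 by -3.78 ± 0.39 on the log2 scale (SE; limma adjusted p = 1.12e-05 and 3.88e-05). In cells with the oncogene, single genes differed within a gate. Foxa1 was 3.72 ± 0.39 higher in K8-PIK basal than in YFP basal cells (adjusted p = 0.00522). Krt5 was 2.81 ± 0.32 higher in K8-PIK luminal than in YFP luminal cells (adjusted p = 0.00299), and 1.54 ± 0.32 higher in K5-PIK luminal cells (adjusted p = 0.0162). Between K5-PIK luminal and basal cells Foxa1 differed by 4.02 ± 0.39 and Krt5 by -3.00 ± 0.32 (adjusted p = 1.55e-05 and 2.79e-05). The purity of the gates was not tested. In bulk RNA, fewer cells of a type and less RNA per cell cannot be told apart. K8-PIK tumour replicate 3 stood apart from the other K8-PIK tumours, with a mean of 6.98 over 5 luminal markers against 8.10 to 9.28 in the other 6, and the counts of calls and the spread between these tumours are given with and without it. Differences below are log2 values ± SE from limma, with a call where the p adjusted by Benjamini and Hochberg over all genes of the fit was under 0.05. Twist2 was above the 40th percentile of its array on 4 of 28 arrays, all of them tumours. It was not tested among sorted cells and entered the tumour fits only through the arrays where it was high, so a call for Twist2 supports nothing and its values are given as a description.

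The promoters shown are those of Snai1, Prrx1 and Vim, 3 of the 4 members called in K8-PIK tumours against YFP luminal cells. They come from RefSeq, as the 250 bases before the start of transcription on build GRCm38.p6. The other called member, Fn1, and Cdh1 had no promoter entry in the reference used. Capitals mark E-boxes, the motif CANNTG on either strand, which Snai1 and the Zeb factors bind in its form CACCTG or CAGGTG. Both motifs were searched in the window of 27025 genes, 1 start per gene, and the first motif includes the second.
Snai1, chr2:167537945-167538194, plus strand: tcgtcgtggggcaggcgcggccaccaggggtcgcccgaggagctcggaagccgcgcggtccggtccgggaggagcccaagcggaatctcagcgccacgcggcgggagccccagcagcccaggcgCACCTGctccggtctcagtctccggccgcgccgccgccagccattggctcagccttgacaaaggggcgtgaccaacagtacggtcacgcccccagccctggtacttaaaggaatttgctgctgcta
Prrx1, chr1:163313651-163313900, minus strand: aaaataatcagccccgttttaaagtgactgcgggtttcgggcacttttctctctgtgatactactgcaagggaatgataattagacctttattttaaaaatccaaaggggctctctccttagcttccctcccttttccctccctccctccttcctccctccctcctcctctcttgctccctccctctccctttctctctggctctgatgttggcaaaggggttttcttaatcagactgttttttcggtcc
Vim, chr2:13574061-13574310, plus strand: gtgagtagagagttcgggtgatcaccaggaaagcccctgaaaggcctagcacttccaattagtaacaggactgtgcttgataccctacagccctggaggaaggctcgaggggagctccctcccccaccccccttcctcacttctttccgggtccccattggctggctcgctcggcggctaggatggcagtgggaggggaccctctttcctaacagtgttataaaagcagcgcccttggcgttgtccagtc
The Snai1 window held 1 E-box, CACCTG, whose first base lay at -126 from the start. The Prrx1 and Vim windows held none, nor did those of Zeb2, Twist1 and Twist2. The windows of Zeb1 and Cdh2 are not reported here. Over all promoters, 66.1% held a CANNTG and 17.1% held CACCTG or CAGGTG in the same window. A match describes these letters only.

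**Figure D1:**
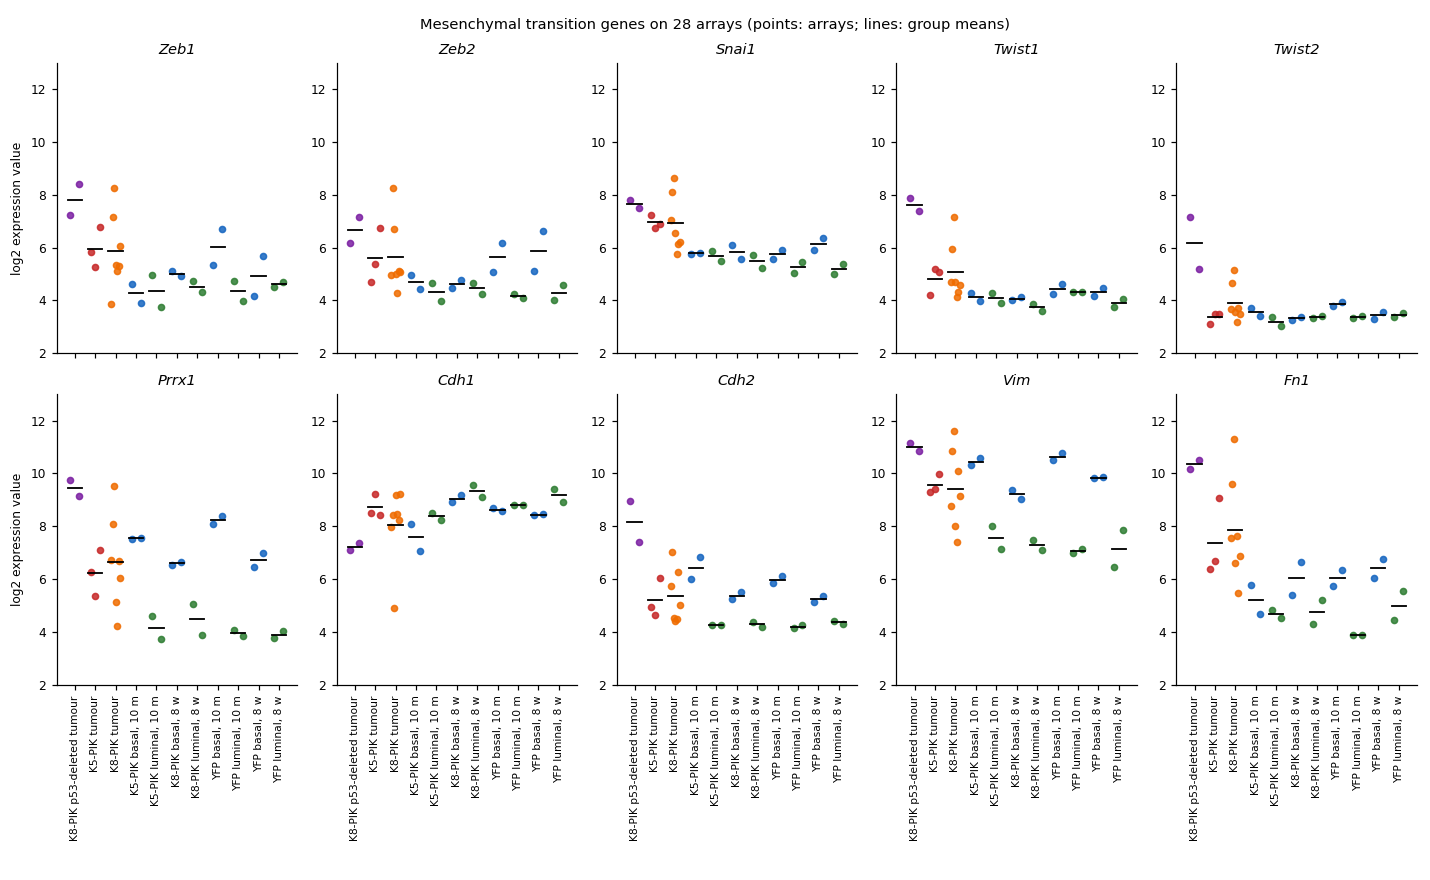
Log2 expression value of the 10 genes (one panel each) on every array, with 11 groups along the horizontal axis, points for arrays and lines for group means; w and m are weeks and months after tamoxifen. The 2 p53-deleted tumours hold the highest group mean of every gene but Cdh1, for which they hold the lowest (7.22), and the 7 K8-PIK tumours spread widely.

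The p53-deleted tumours had the highest group mean of the 11 groups for 9 of the 10 genes and the lowest for Cdh1. Across the 11 group means the span was widest for Fn1, 6.45, and Prrx1, 5.57, and narrowest for Cdh1, 2.10, and Snai1, 2.47. Over the 11 group means, further probe sets of a gene had an r with the chosen one of 1.0 for both others of Vim, 0.77 to 0.99 for the 4 others of Prrx1, 0.97 for that of Cdh2, 0.69 and 0.89 for the others of Zeb1 and 0.43 to 0.80 for those of Zeb2. The Zeb1 probe set with the r of 0.69 was above the 40th percentile on 16 of 28 arrays and followed the chosen one less closely. The other probe sets of Zeb2 were above it on 1 or 2 arrays and that of Cdh2 on 8. These correlations describe 11 group means that share the same arrays.

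In normal gland, most members were higher in the basal layer. Of the 9 tested members 6 were called higher in YFP basal than in YFP luminal cells at 8 weeks and 0 lower, where 30.3% of all 13150 genes were called and 10.4% were called higher. At 10 months 6 of 9 were again higher and 0 lower, where 43.4% of genes were called and 17.6% were higher. The median member difference was 0.94 at 8 weeks and 1.67 at 10 months, beside -0.09 and -0.12 over all genes tested. Prrx1, Vim, Cdh2, Fn1 and Zeb2 were called at both times, Snai1 at 8 weeks and Zeb1 at 10 months. Leaving out YFP luminal replicate 1 or YFP basal replicate 2 left 2 members called at 8 weeks, and leaving out YFP luminal or basal replicate 2 left 4 at 10 months. In a fit of all 28 arrays, tumours included, Vim was the only call left at 8 weeks, and Prrx1, Cdh2 and Vim those at 10 months.

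Vimentin gave a wide separation. Vim stood at 9.81 and 9.86 in YFP basal cells at 8 weeks, against 6.46 and 7.84 in YFP luminal cells. At 10 months Vim was 10.51 and 10.76 in basal cells, against 6.97 and 7.12 in luminal cells. The gates did not overlap at either time, with differences of 2.68 ± 0.37 (adjusted p = 0.000315) and 3.59 ± 0.37 (adjusted p = 1.72e-05). Vim kept its call under every alternative tried at both times.

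Prrx1 separated the gates as fully. Its level was 6.44 and 7.00 in YFP basal cells at 8 weeks, against 3.75 and 4.01 in luminal cells. At 10 months the basal cells had 8.08 and 8.38, against 4.07 and 3.84 in luminal cells. All basal arrays lay above all luminal ones, by 2.84 ± 0.35 (adjusted p = 0.000152) and 4.27 ± 0.35 (adjusted p = 3.13e-06). In the fit of all 28 arrays the 8-week difference had an adjusted p of 0.0674. Luminal values lay near the 40th percentile of the arrays (3.89 to 3.99).

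The basal Prrx1 level also differed with time after tamoxifen. YFP basal cells at 10 months exceeded those at 8 weeks by 1.51 ± 0.35, with no overlap, but the adjusted p of 0.0565 missed the threshold in a comparison where 1.27% of genes were called. A second Prrx1 probe set read 8.25 and 8.18 at 10 months, against 5.13 and 5.69 at 8 weeks. With the mean of all 5 Prrx1 probe sets the difference was 1.89 with an adjusted p of 0.00422, and with a second quantile normalization it was 1.44 with 0.04. None of the 9 tested members passed in this comparison, and Prrx1 and Cdh2 did at an unadjusted p under 0.05. In YFP luminal cells 0 members changed between the times, where 0.0608% of genes were called, and Fn1 had an unadjusted p of 0.047.

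Cdh2 was higher in the basal layer, while the lower Cdh1 there missed the threshold. Cdh2 was 5.14 and 5.37 in YFP basal cells at 8 weeks, against 4.42 and 4.31 in luminal cells, a difference of 0.89 ± 0.24 (adjusted p = 0.014). At 10 months it was 5.83 and 6.13 in basal cells, against 4.15 and 4.24 in luminal cells, a difference of 1.78 ± 0.24 (adjusted p = 0.00011). Cdh1, present in both layers, stood at 8.41 and 8.45 in basal cells at 8 weeks, against 9.41 and 8.92 in luminal cells, and its difference of -0.74 ± 0.29 missed the threshold (adjusted p = 0.0694). At 10 months Cdh1 differed by -0.16 ± 0.29 (adjusted p = 0.672). The Cdh1 values of the basal arrays lay below those of the luminal arrays at both times, at 10 months only narrowly (at most 8.69, against at least 8.79). The share of all genes without overlap is not given here, so this adds no support to the missed tests. The 8-week Cdh2 call was lost when its 2 probe sets were averaged (0.70, adjusted p = 0.0667).

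Fibronectin followed the basal gate with more spread. Fn1 was 6.04 and 6.77 in YFP basal cells at 8 weeks, against 4.45 and 5.53 in luminal cells (1.42 ± 0.50, adjusted p = 0.0483). At 10 months it was 5.74 and 6.35 in basal cells, against 3.88 and 3.89 in luminal cells (2.16 ± 0.50, adjusted p = 0.00419). The 8-week Fn1 call fell just inside the threshold and was lost without the filter on dim genes (adjusted p = 0.0656).

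**Figure D2:**
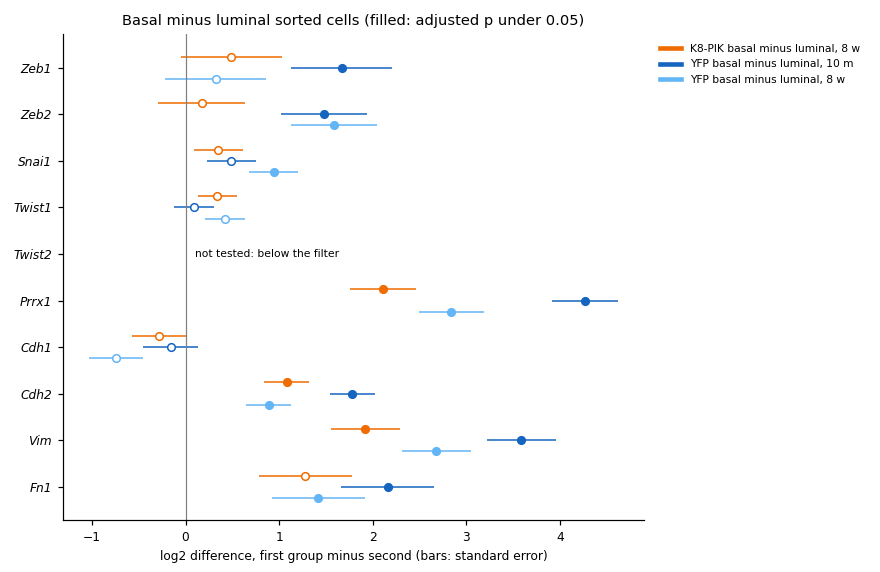
Log2 difference between basal and luminal sorted cells for each gene (rows), with bars of 1 standard error, in K8-PIK cells at 8 weeks and YFP cells at 10 months and 8 weeks; filled points passed the adjusted p threshold. Prrx1, Vim and Cdh2 are filled in all 3 contrasts and Cdh1 lies on the negative side in all 3 without passing.

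For Zeb1 and Zeb2, the 2 arrays of each YFP basal group lay more than 1 apart. Zeb1 was 4.18 and 5.68 in YFP basal cells at 8 weeks, against 4.53 and 4.69 in luminal cells, so the gates overlapped (0.32 ± 0.54, adjusted p = 0.704). At 10 months Zeb1 was 5.35 and 6.71 in basal cells, against 4.74 and 3.99 in luminal cells (1.67 ± 0.54, adjusted p = 0.0244). Zeb2 was 5.13 and 6.64 in basal cells at 8 weeks, against 4.01 and 4.58 in luminal cells (1.59 ± 0.46, adjusted p = 0.0205). Its 10-month values were 5.09 and 6.19 in basal cells, against 4.25 and 4.08 in luminal cells (1.48 ± 0.46, adjusted p = 0.0204). Snai1 was 5.91 and 6.37 in basal cells at 8 weeks, against 5.00 and 5.40 in luminal cells (0.94 ± 0.26, adjusted p = 0.0161), and differed by 0.49 ± 0.26 at 10 months (adjusted p = 0.142). Twist1 lay between 3.74 and 4.62 in all 8 YFP arrays and was called at neither time. The Zeb1 and Zeb2 calls had an adjusted p of 0.192 to 0.244 in the fit of all 28 arrays, and they were lost without basal replicate 2.

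The YFP basal replicates with more Zeb1 and Zeb2 were also those with more endothelial, fibroblast, pericyte and immune marker RNA. They also had more erythroid and luminal marker RNA, so the pattern was not particular to stromal and vascular markers. The pericyte mean was 6.04 and 6.86 in replicates 1 and 2 at 8 weeks, and 5.75 and 6.58 at 10 months. The immune mean was 4.85 and 5.02, and 4.86 and 5.14. For 2 erythroid markers it was 8.06 and 9.01, and 8.09 and 9.18, and for the luminal markers 6.98 and 7.03, and 6.15 and 6.74. The mean over 10 endothelial markers was 6.37 and 7.25 in YFP basal replicates 1 and 2 at 8 weeks, against 4.75 and 5.73 in luminal cells. At 10 months it was 6.09 and 7.08 in basal cells, against 4.99 and 5.01 in luminal cells. All 10 endothelial markers had the higher mean in basal cells at 8 weeks and 9 of 10 did at 10 months, Vwf being the exception. Within the 8 pairs of sorted arrays, the array with the higher endothelial mean had the higher Zeb1 in 7 pairs, Snai1, Twist1 and Vim in 7, Zeb2 and Fn1 in 6, Prrx1 and Cdh1 in 5 and Cdh2 in 4. The median over all genes tested was 4 pairs. By fibroblast markers the same count was 8 pairs for Twist1, 7 for Zeb2 and Fn1, 6 for Zeb1, Snai1, Prrx1, Vim and Cdh1 and 5 for Cdh2. For every member the immune list gave the same count as the endothelial list, and the pericyte list the same as the fibroblast list. By the basal and by the luminal list the counts ran from 3 to 6 pairs, with 6 for Zeb2 by the luminal list and for Cdh2 by both. The part of any of these cell types in the Zeb1 and Zeb2 values was not tested. Over 10 fibroblast markers the mean was 6.16 and 6.63 in basal cells at 8 weeks, against 5.09 and 6.04 in luminal cells, with 7 of 10 markers higher in basal cells. At 10 months it was 5.82 and 6.52 in basal cells, against 5.13 and 5.16 in luminal cells, again with 7 of 10 higher. Pdgfra, a receptor of fibroblasts, Fap and Col1a2 lay below the 40th percentile on all 8 YFP arrays. Col1a1, Col3a1, Dcn, Postn and Col6a3 lay above it on all 8, and Lum and Dpt on some.

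**Figure D3:**
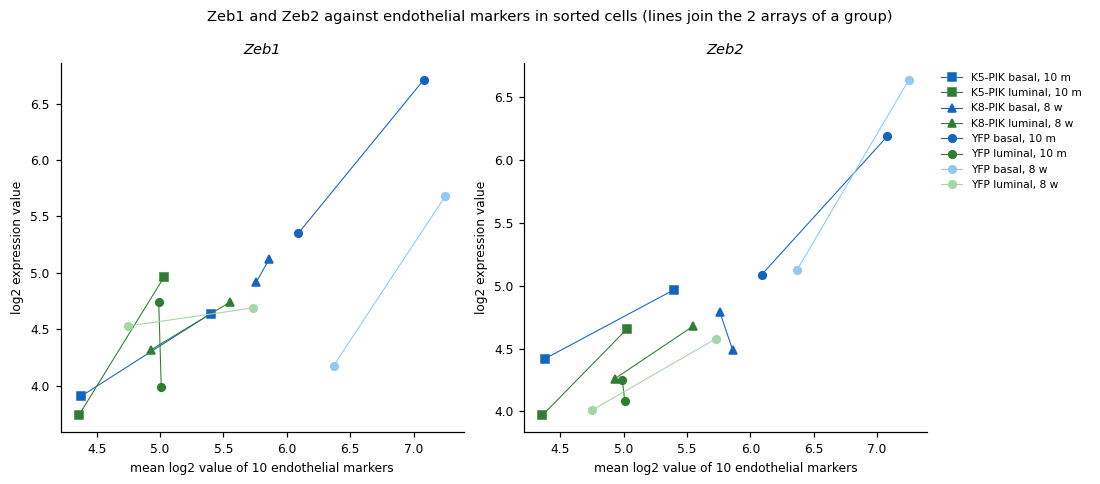
Log2 level of Zeb1 (left) and Zeb2 (right) against the mean of 10 endothelial markers on the 16 arrays of sorted cells, with a line joining the 2 arrays of a group. In the YFP basal groups the array with the higher endothelial mean (7.25 at 8 weeks, 7.08 at 10 months) has the higher Zeb1 (5.68 and 6.71) and Zeb2 (6.64 and 6.19). The fibroblast, pericyte, immune, erythroid and luminal means, not drawn, are also higher on those arrays.

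Among other genes of the transition programme, the counts below stand beside 30.3% of all genes called at 8 weeks and 43.4% at 10 months. At 8 weeks 4 of 12 tested mesenchymal effectors rose in YFP basal cells and 0 fell, led by the protease Mmp2 (4.77 ± 0.56, adjusted p = 1e-04) and smooth muscle actin Acta2 (3.45 ± 0.48, adjusted p = 0.000315), a myoepithelial gene. At 10 months 7 of 12 rose and 0 fell. Of 10 factors that uphold epithelial identity, 5 were lower and 1 higher in basal cells at both times, with Elf5, a luminal factor, down by 3.09 on the log2 scale at 10 months (SE 0.28, adjusted p = 6.13e-06). Among 8 other tested transition factors 1 rose at 8 weeks, the basal factor Snai2 (2.50 ± 0.16, adjusted p = 1.8e-06), while 3 rose and 1 fell at 10 months. Of 13 junction genes, 4 were lower and 1 higher at 8 weeks, and 6 were lower and 2 higher at 10 months. The tight junction protein Ocln fell by 2.41 (adjusted p = 0.00585) and 3.57 (adjusted p = 0.000289), and the basal cadherin Cdh3 rose by 4.09 (adjusted p = 5.71e-06) and 4.29 (adjusted p = 1.41e-06). These lists, like the 10 genes, were drawn up with earlier results of the data known.

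Before tumours formed, the oncogene left the members in luminal cells without a called change. In K8-PIK luminal against YFP luminal cells at 8 weeks 0 of 9 tested members passed in limma, also at an unadjusted p under 0.05, where 0.350% of genes were called. Vim was 7.46 and 7.11 in K8-PIK luminal cells, against 6.46 and 7.84 in YFP luminal cells (0.14, 95% interval -0.67 to 0.95). Cdh1 was 9.55 and 9.10, against 9.41 and 8.92 (0.16, -0.46 to 0.78). Of the Tgfb and activin genes 1 of 10 rose, the activin subunit Inhba (2.18 ± 0.40, adjusted p = 0.0437).

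K8-PIK cells in the basal gate, in which the luminal driver had recombined, held more Prrx1, Vim and Cdh2 than K8-PIK cells in the luminal gate. Prrx1 was 6.54 and 6.64 in K8-PIK basal cells, against 5.07 and 3.89 in K8-PIK luminal cells (2.11 ± 0.35, adjusted p = 0.00134). Vim was 9.38 and 9.03 in the basal gate, against 7.46 and 7.11 in the luminal gate (1.92 ± 0.37, adjusted p = 0.00328). Cdh2 was 5.24 and 5.50, against 4.38 and 4.19 (1.08 ± 0.24, adjusted p = 0.00678). These 3 genes were the only members called of 9 tested, where 19.5% of genes were called and 8.90% were higher. The gates did not overlap for them, but neither did they for Zeb1, Twist1 and Fn1, so this does not set the 3 apart. The share of all genes without overlap in this comparison is not given here, so the non-overlap describes these values only. Fn1 was 5.40 and 6.66, against 4.28 and 5.21 (1.28 ± 0.50, adjusted p = 0.094), and Zeb1, Zeb2, Snai1, Twist1 and Cdh1 had adjusted p-values of 0.296 to 0.842. The endothelial list mean was 5.86 and 5.76 in the basal gate, against 5.55 and 4.93 in the luminal gate, with 10 of 10 markers higher, and 9 of 10 fibroblast markers were higher too. Their part was not tested. All 3 calls were lost in the fit of all 28 arrays (adjusted p of 0.199 to 0.366), and that of Cdh2 also with the mean of its probe sets (0.74, adjusted p = 0.0735).

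Set against YFP basal cells at 8 weeks, K8-PIK basal cells showed 0 of 9 members called, where 0.418% of genes were. Zeb2 came nearest, at 4.49 and 4.79 in K8-PIK basal cells, against 5.13 and 6.64 in YFP basal cells (-1.25 ± 0.46, unadjusted p = 0.0183, adjusted p = 0.256). Prrx1 was 6.54 and 6.64, against 6.44 and 7.00 (-0.13, 95% interval -0.89 to 0.64), and Vim 9.38 and 9.03, against 9.81 and 9.86 (-0.63, -1.43 to 0.18). The endothelial list mean was 5.86 and 5.76 in K8-PIK basal cells, against 6.37 and 7.25 in YFP basal cells. The basal-luminal difference itself did not pass for any member between K8-PIK and YFP cells (0.00760% of genes called), with Zeb2 again nearest (-1.42 ± 0.65, unadjusted p = 0.0484, adjusted p = 0.512).

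In K5-PIK basal cells at 10 months, Cdh1 and Zeb1 both fell. Cdh1 was 8.09 and 7.07 in K5-PIK basal cells, against 8.69 and 8.57 in YFP basal cells (-1.05 ± 0.29, adjusted p = 0.0276). Zeb1 was 4.64 and 3.91 in K5-PIK basal cells, against 5.35 and 6.71 in YFP basal cells (-1.76 ± 0.54, adjusted p = 0.0433). Of 9 tested members 2 were called, both lower, where 16.3% of genes were called and 8.02% were lower. The groups did not overlap for these 2, nor for Zeb2, Prrx1 and the untested Twist2. Without the share of all genes that did not overlap, not given here, this describes no trait of the members. Prrx1 (-0.69 ± 0.35), Vim (-0.18 ± 0.37), Cdh2 (0.43 ± 0.24) and Snai1 (0.03 ± 0.26) did not pass. The Zeb1 call was lost without any 1 of the 4 arrays, the Cdh1 call without either YFP basal array or K5-PIK basal replicate 2, and both in the fit of all 28 arrays (adjusted p = 0.272 and 0.49). The endothelial mean was 5.40 and 4.38 in K5-PIK basal cells, against 6.09 and 7.08 in YFP basal cells, lower for 10 of 10 markers, and its part in the Zeb1 difference was not tested. The fibroblast mean was 6.68 and 5.59, against 5.82 and 6.52.

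Beside Cdh1, 0 of 13 other junction genes changed in K5-PIK basal cells. Of 12 tested effectors 2 were lower and 0 higher, a share near the 16.3% of all genes called, namely the integrin subunits Itga5 (-1.73 ± 0.22, adjusted p = 0.00172) and Itgb1 (-0.60 ± 0.16, adjusted p = 0.0248), which together form a fibronectin receptor. Snai2 fell by 1.05 (SE 0.16, adjusted p = 0.00277), and the epithelial factors Elf3 (1.11 ± 0.27, adjusted p = 0.0184) and Elf5 (0.98 ± 0.28, adjusted p = 0.0318) rose. Of 10 Tgfb genes 3 were lower and 0 higher, among them the signal transducer Smad3 (-1.16 ± 0.30, adjusted p = 0.0216).

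K5-PIK cells in the luminal gate at 10 months held less Prrx1, Vim and Cdh2 than K5-PIK cells in the basal gate. Prrx1 was 4.61 and 3.71 in K5-PIK luminal cells, against 7.51 and 7.57 in K5-PIK basal cells (-3.38 ± 0.35, adjusted p = 2.66e-05). Vim was 8.01 and 7.13, against 10.32 and 10.58 (-2.88 ± 0.37, adjusted p = 0.000126). Cdh2 was 4.24 and 4.27, against 5.99 and 6.84 (-2.16 ± 0.24, adjusted p = 3.8e-05). These 3 genes were the only members called of 9 tested, all lower, where 23.6% of genes were called and 13.2% were lower. They kept their calls under all 10 alternatives. The gates did not overlap for them, nor for Cdh1 and the untested Twist2. Without the share of all genes that did not overlap, not given here, this describes no trait of the members. The fibroblast list mean was 5.68 and 5.01 in the luminal gate, against 6.68 and 5.59 in the basal gate. Zeb1, Snai1 and Twist1 differed by 0.08 ± 0.54, -0.10 ± 0.26 and -0.03 ± 0.21 between these gates. Against YFP luminal cells of the same time 0 of 9 members passed, also unadjusted, where 6.40% of genes were called.

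The width of the basal-luminal gap at 10 months differed between K5-PIK and YFP cells by -1.75 ± 0.76 for Zeb1 and -1.62 ± 0.71 for Fn1. Both had an adjusted p of 0.163, and 0 of 9 members passed where 7.15% of genes were called. Between 10 months and 8 weeks in YFP cells the gap was 1.44 ± 0.50 wider for Prrx1 (adjusted p = 0.273), with 0.0532% of genes called. With the mean of the Prrx1 probe sets both gap tests passed (-1.44, adjusted p = 0.02, and 1.99, adjusted p = 0.0356).

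Tumours of the luminal driver without p53 were high in nearly all the members. In p53-deleted tumours against YFP luminal cells 9 of 10 members were called higher and 0 lower, where 24.0% of 13663 genes were called and 12.1% were higher. Leaving aside Twist2, 8 of 9 were. The median member difference was 3.42, beside 0.05 over all genes. Fn1 was 10.18 and 10.51 in the 2 tumours, against 3.88 to 5.53 in the 4 YFP luminal arrays of both times (5.90 ± 1.07, adjusted p = 0.000943). Prrx1 was 9.76 and 9.13, against 3.75 to 4.07 (5.53 ± 0.91, adjusted p = 0.000466). The YFP luminal level of Prrx1, and that of Fn1 at 10 months, lay at or near the 40th percentile, so these differences say that the tumours were higher but give no exact fold. Vim was 11.17 and 10.85, against 6.46 to 7.84 (3.91 ± 0.77, adjusted p = 0.00164). Both tumours lay outside the range of the 4 luminal arrays for all 10 members, and for 51.3% of all genes in either direction. Cdh1 lay below it and the other 9 above it, Twist2 among them as a description only.

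Twist1, Zeb1, Zeb2 and Snai1 rose in the same 2 tumours. Twist1 was 7.87 and 7.40 in p53-deleted tumours, against 3.74 to 4.34 in YFP luminal cells (3.51 ± 0.55, adjusted p = 0.000339). Twist2 was 7.17 and 5.18, against 3.33 to 3.54, below the 40th percentile. Zeb1 was 7.24 and 8.41, against 3.99 to 4.74 (3.34 ± 0.82, adjusted p = 0.00667). Zeb2 was 6.17 and 7.18, against 4.01 to 4.58 (2.44 ± 0.78, adjusted p = 0.0287), and Snai1 was 7.81 and 7.52, against 5.00 to 5.46 (2.44 ± 0.55, adjusted p = 0.0038). Leaving out tumour replicate 1 lost Zeb2 and Snai1, and leaving out replicate 2 lost Zeb1 and Zeb2. The Zeb2 call was also lost without any of 3 of the 4 YFP luminal arrays.

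Of the cadherins Cdh2 rose and Cdh1 missed the threshold. Cdh2 was 8.94 and 7.41 in p53-deleted tumours, against 4.15 to 4.42 in YFP luminal cells (3.89 ± 0.58, 14.9-fold, adjusted p = 0.000225). Cdh1 was 7.09 and 7.35, against 8.79 to 9.41, a difference of -1.76 ± 0.73 whose adjusted p of 0.0823 missed the threshold. In a fit of only these groups, without the spread of the other tumours, it passed at the same size (adjusted p = 0.00145).

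Of the other genes of the programme in p53-deleted tumours, beside 24.0% of all genes called, 8 of 13 mesenchymal effectors were higher and 1 lower than in YFP luminal cells, with Mmp2 up by 5.38 (adjusted p = 9e-04) and the collagen crosslinker Lox by 5.15 (adjusted p = 0.00385). Of 9 further transition factors 3 rose and 0 fell, led by the chromatin protein Hmga2 (3.86 ± 0.93, adjusted p = 0.0058). Of 10 epithelial factors 4 fell, among them the splicing factor Esrp2 (-1.95 ± 0.32, adjusted p = 0.000466) and Elf3 (-2.50 ± 0.69, adjusted p = 0.014), and 0 rose. Of 13 junction genes 7 fell, such as Cldn4 (-2.17 ± 0.53, adjusted p = 0.00624), and 1 rose, the basal cadherin Cdh3 (1.44 ± 0.40, adjusted p = 0.0137). Inhba rose by 3.47 (adjusted p = 0.00581) while Smad3 fell by 1.27 (adjusted p = 0.00225). Stromal markers moved with these results: the fibroblast list mean was 7.58 and 8.18 in the 2 tumours, against 5.09 to 6.04 in YFP luminal cells, with 10 of 10 markers above the 8-week luminal mean. Pdgfra was 5.50 and 4.82 and Fap 4.71 and 4.94, and the endothelial mean was 4.43 and 4.37, with 0 of 10 markers above the 8-week luminal mean. The mean of 5 basal markers was 8.32 and 8.93 in the tumours, against 6.36 to 7.72 in YFP luminal cells, with 4 of 5 above the 8-week luminal mean. The mean of 10 immune markers was 5.28 and 5.23 in the tumours, against 4.45 to 4.92, with 8 of 10 above it. All 5 luminal markers lay below it, with a list mean of 6.92 and 7.78 in the tumours, against 8.87 to 8.96. The part of these cell types in the differences was not tested.

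**Figure D4:**
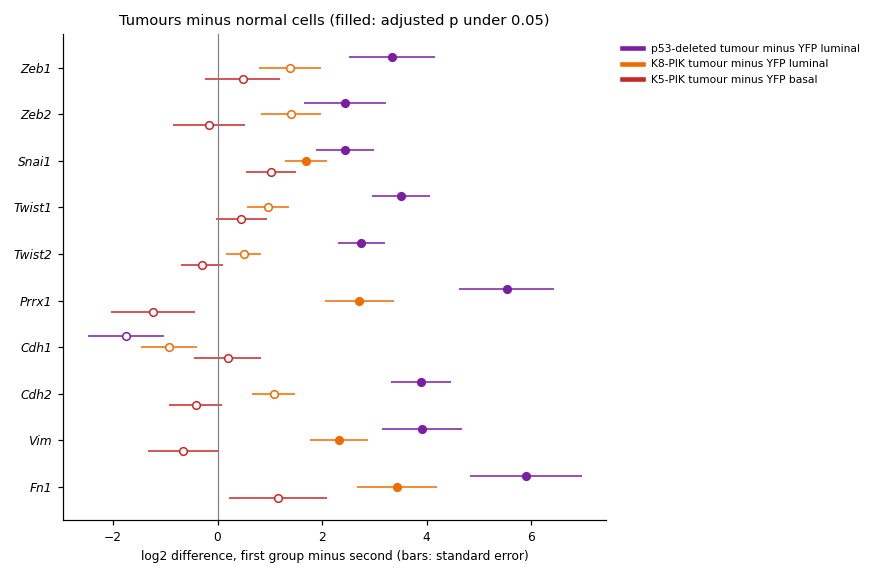
Log2 difference between tumours and normal cells for each gene (rows), with bars of 1 standard error, for p53-deleted and K8-PIK tumours minus YFP luminal cells and K5-PIK tumours minus YFP basal cells; filled points passed the adjusted p threshold. Filled points mark 9 genes for p53-deleted tumours, Twist2 among them, 4 for K8-PIK tumours and 0 for K5-PIK tumours.

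K8-PIK tumours, whose mice carried no p53flox allele, were higher in 4 members. Against YFP luminal cells 4 of 10 were called higher and 0 lower, where 10.6% of genes were called and 4.47% were higher. Fn1 ran between 5.48 and 11.31 with a median of 7.55 in the 7 tumours, against 3.88 to 5.53 in YFP luminal cells (3.43 ± 0.77, adjusted p = 0.00867), and 6 of 7 tumours lay above every luminal array. Prrx1 ran between 4.23 and 9.53 with a median of 6.69, against 3.75 to 4.07 (2.71 ± 0.66, adjusted p = 0.0128). Vim ran between 7.41 and 11.61 with a median of 9.16, against 6.46 to 7.84 (2.32 ± 0.56, adjusted p = 0.0122). Snai1 ran between 5.75 and 8.64 with a median of 6.54, against 5.00 to 5.46 (1.69 ± 0.40, adjusted p = 0.0107). For Prrx1 and Snai1 all 7 tumours lay above all 4 luminal arrays, and 6.90% of all genes did not overlap in either direction.

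Zeb1, Zeb2, Twist1 and Cdh2 differed by 0.97 to 1.40 without passing (adjusted p of 0.112 to 0.144), with 5 to 6 of 7 tumours above every luminal array. Cdh1 differed by -0.93 ± 0.53 (adjusted p = 0.283). The 4 calls did not depend on tumour replicate 3, without which there were again 4, but they did depend on the few normal arrays: 0 remained without YFP luminal replicate 1 at 8 weeks, 1 without replicate 1 at 10 months and 2 without replicate 2 at 10 months. They were also lost when the fit held only the groups of the contrast (adjusted p of 0.069 to 0.107). Against K8-PIK luminal cells of 8 weeks 0 of 10 passed, where 2.50% of genes were called, and 5 did at an unadjusted p under 0.05: Snai1, Twist1, Prrx1, Vim and Fn1. In that contrast Fn1 differed by 3.12 ± 0.99 (adjusted p = 0.0944), and leaving out tumour replicate 5 or 6 gave 1 call. The fibroblast list mean was 5.06 to 8.37 in K8-PIK tumours, against 5.09 to 6.04 in YFP luminal cells, with 9 of 10 markers above the 8-week luminal mean. The basal mean was 7.39 to 10.87 in K8-PIK tumours, against 6.36 to 7.72 in YFP luminal cells, with 5 of 5 markers above the 8-week luminal mean, and Prrx1, Vim and Fn1 were themselves higher in the basal layer. Of the immune markers 10 of 10 lay above it (list mean 4.58 to 6.06 in K8-PIK tumours, against 4.45 to 4.92), and of the pericyte markers 3 of 3 (4.27 to 7.76, against 4.62 to 5.51). The part of these cell types was not tested.

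Of the 13 effectors 4 rose in K8-PIK tumours against YFP luminal cells, beside 10.6% of all genes called, including Mmp2 (3.63 ± 0.70, adjusted p = 0.00307) and the matrix protein Sparc (2.30 ± 0.34, adjusted p = 0.000419). Among 10 epithelial factors 0 changed, and of 13 junction genes 1 rose, Cdh3 (0.90 ± 0.29, adjusted p = 0.0499), while 0 fell. The ligand Tgfb3 rose by 1.87 (adjusted p = 0.00116) and Inhba by 2.31 (adjusted p = 0.0189).

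Within the 7 K8-PIK tumours the members varied more than most genes. Their standard deviation over the 7 tumours was 0.71 to 1.97 with a median of 1.41, beside a median of 0.31 over 13244 genes. Without replicate 3 it was 0.50 to 1.41 with a median of 1.06, beside 0.28 over all genes. Replicate 3 decided the spread of Cdh1, 1.46 with it and 0.51 without it, and of Twist1, 1.08 with it and 0.63 without it. Fn1 varied more than 99.7% of genes with replicate 3 and 98.5% without it, Prrx1 more than 99.4% and 98.4%, Vim more than 98.6% and 98.1%, and Twist2 more than 87.6% and 81.1%. Replicate 3 held the highest value for 7 of the 10 members and for 24.2% of all genes, and it was the highest or lowest tumour for 41.7% of genes. Replicate 2 was highest for Zeb2 and Cdh2 and replicate 7 for Cdh1. Replicate 5 held the lowest value for 6 members, and for 13.2% of all genes.

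Replicate 3 joined high factors and effectors to a loss of E-cadherin. Its Cdh1 was 4.91, while the other 6 tumours lay between 7.96 and 9.21. In the same tumour Fn1 was 11.31, Vim 11.61, Prrx1 9.53, Snai1 8.64, Zeb1 8.25, Twist1 7.17 and Twist2 5.15, each the highest of the 7. Cdh2 was 4.52 there, below the median of 5.03, so the cadherins did not change places. The epithelial genes Epcam, at 8.08, against 10.52 to 11.31 in the others, and Cldn7, at 8.19, against 10.34 to 10.99, were low as well, as were the splicing factor Esrp1 (5.68, against 7.50 to 8.08) and Grhl2 (5.37, against 7.27 to 8.01). Those 4 genes were picked after their values were seen. Krt8, Krt18, Krt5 and Elf5 were also lowest in replicate 3, but other epithelial genes did not follow. Foxa1 (7.21, against 3.94 to 9.17), Krt14 (9.58, against 7.99 to 11.46) and Trp63 (7.65, against 5.54 to 9.15) lay within the range of the others. Ovol2 was barely lower (3.99, against 4.00 to 4.90). The mean of 5 basal markers was 7.90 in replicate 3, within the range of the others.

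Replicate 2 showed high mesenchymal genes with E-cadherin kept. Its Zeb2 of 8.25, Zeb1 of 7.16, Vim of 10.85 and Fn1 of 9.61 were the highest or second highest of the 7, and its Cdh1 was 8.42, the median. The luminal mean was 8.94 and Epcam 10.90 in this tumour. Fibroblast markers were high in both: the list mean was 8.37 in replicate 2 and 8.14 in replicate 3, against 5.06 to 6.54 in the other 5. They differed in single fibroblast markers in both directions. Lum was 7.40 in replicate 2 and 3.71 in replicate 3, Col1a1 11.86 and 11.23, and Col3a1 11.47 and 11.16. Higher in replicate 3 were Fap (6.32 and 7.38), Pdgfra (4.02 and 4.56) and Dcn (10.52 and 10.92). Pericyte markers averaged 7.76 and 6.56, although Pdgfrb of that list was 8.59 and 9.47. Replicate 5, lowest for Vim (7.41), Prrx1 (4.23), Snai1 (5.75), Zeb2 (4.29), Twist1 (4.15) and Twist2 (3.18), had the lowest fibroblast mean, 5.06, and the highest luminal mean, 9.28. The part of fibroblasts in the spread between tumours was not tested.

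**Figure D5:**
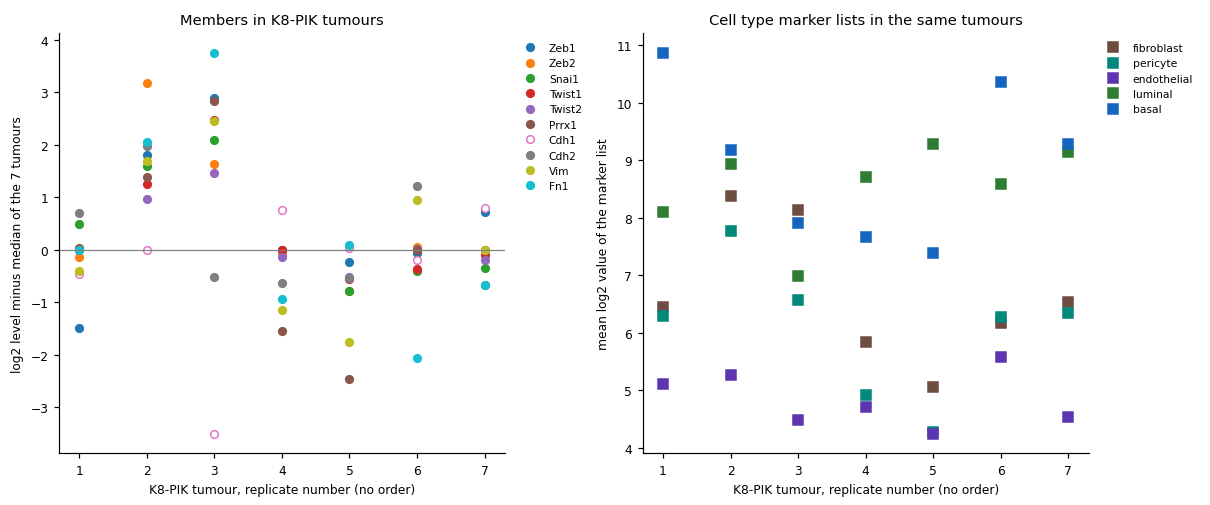
The 7 K8-PIK tumours, named by replicate number. Left, log2 level of each gene minus its median over the 7 tumours (Cdh1 as an open circle); right, mean log2 value of 5 cell type marker lists. Replicate 3 has the highest value of 7 genes and the lowest Cdh1 (4.91), and replicates 2 and 3 have the highest fibroblast means (8.37 and 8.14).

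Set directly against K8-PIK tumours, p53-deleted tumours had 0 of 10 members called, where 0.325% of 13244 genes were called. At an unadjusted p under 0.05 there were 4 members, Twist2 among them. Twist1 was 7.87 and 7.40 in p53-deleted tumours, against 4.15 to 7.17 with a median of 4.70 in K8-PIK tumours (2.55 ± 0.66, adjusted p = 0.106). Twist2 was 7.17 and 5.18, against 3.18 to 5.15 with a median of 3.69. Cdh2 was 8.94 and 7.41, against 4.39 to 7.01 with a median of 5.03 (2.83 ± 0.69, adjusted p = 0.0904). The groups did not overlap for Twist1 and Cdh2, nor for 15.5% of all genes. They did not overlap for Twist2 either, but it entered the fit only through its high arrays and supports nothing. Prrx1, the fourth, differed by 2.82 ± 1.07 (adjusted p = 0.19).

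The count depended on a single tumour. Without K8-PIK replicate 3, 1027 genes were called where 43 had been, and 5 members among them. These were Twist2, as a description only, Twist1 (2.89, adjusted p = 0.0048), Prrx1 (3.30, 0.0358), Cdh2 (2.69, 0.04) and Cdh1 (-1.36, 0.038). Replicate 3 was singled out from these same data. It held the highest K8-PIK value of Twist1, Twist2 and Prrx1 and the lowest of Cdh1. Leaving it out widens those differences by construction, so the gained calls add no support. In the fit of all 28 arrays 4 passed, Twist1, Prrx1, Cdh2 and, as a description only, Twist2. The share of all genes called in that fit is not given here. The median member difference in the full comparison was 2.10, beside 0.04 over all genes, and all 10 fibroblast markers had the higher mean in p53-deleted tumours. Of the 9 further factors, 13 effectors, 10 epithelial factors and 13 junction genes 0 were called, with median differences of 0.30, 0.81, -1.07 and -0.62.

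Between K5-PIK tumours, of the basal driver, and K8-PIK tumours limma called no member and 0 of 13244 genes (0%), with 1225 at an unadjusted p under 0.05 and 0 members among them. Fn1 was 6.39, 6.69 and 9.06 in K5-PIK tumours, against 5.48 to 11.31 in K8-PIK tumours (-0.49, 95% interval -2.81 to 1.83). Cdh1 was 8.52, 9.21 and 8.42, against 4.91 to 9.21 (0.67, -0.95 to 2.28). Snai1 was 7.25, 6.76 and 6.90, against 5.75 to 8.64 (0.05, -1.15 to 1.25). The groups overlapped for all 10 members, and for 7 of them the interval held a difference of 1 in either direction.

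Against YFP basal cells, K5-PIK tumours had 0 of 10 members called although 30.0% of 13663 genes were. Vim was 9.31, 9.42 and 9.99 in K5-PIK tumours, against 9.81 to 10.76 in the 4 YFP basal arrays (-0.66 ± 0.68, adjusted p = 0.498). Prrx1 was 6.27, 5.34 and 7.09, against 6.44 to 8.38 (-1.24 ± 0.80, adjusted p = 0.26). Snai1, at 7.25, 6.76 and 6.90, against 5.59 to 6.37, had all 3 tumours above all 4 normal arrays (1.02 ± 0.48, unadjusted p = 0.0474, adjusted p = 0.119). In a fit of only these groups 3 members passed, and the share of all genes called in that fit is not given here. The endothelial mean was 5.17 to 5.74 in K5-PIK tumours, against 6.09 to 7.25 in YFP basal cells, and its part was not tested.

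K5-PIK tumour replicate 3 was the highest of the 3 for Zeb1 (6.80), Zeb2 (6.73), Prrx1 (7.09), Cdh2 (6.03), Vim (9.99) and Fn1 (9.06). Its fibroblast mean was 7.88, against 6.29 and 6.23 in replicates 1 and 2. Compared with K5-PIK basal cells at 10 months 0 of 10 members passed, also unadjusted, where 17.3% of genes were called. For 6 of 10 members the 3 tumours did not overlap with the K5-PIK basal arrays, as for 46.7% of all genes. The differences were 1.14 ± 0.77 for Cdh1 (adjusted p = 0.341) and -1.31 ± 0.96 for Prrx1 (adjusted p = 0.388).

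For other genes of the programme in K5-PIK tumours against YFP basal cells, the counts stand beside 30.0% of all genes called in either direction. Snai2 fell by 2.38 (SE 0.22, adjusted p = 2.79e-06) and was the only further factor of 9 called. Of 10 epithelial factors 3 rose and 0 fell, including Elf5 (3.27 ± 0.67, adjusted p = 0.00115), and of 13 junction genes 5 rose, such as Ocln (2.64 ± 0.65, adjusted p = 0.00421), and 1 fell, Cdh3 (-3.46 ± 0.35, adjusted p = 3.76e-06). Of 13 effectors 2 fell, Acta2 (-1.88 ± 0.68, adjusted p = 0.0412) and Itgb1 (-0.80 ± 0.18, adjusted p = 0.00249), and 0 rose.

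Over the 11 group means, the 3 genes whose pattern was most like that of each member were named by r. For Fn1 they were Col5a3 (r = 0.975), Lox (0.964) and Lpar1 (0.961), and for Prrx1 St3gal2 (0.985), Ppic (0.983) and Col5a1 (0.976). Vim was matched by Fkbp7 (0.985), Nid1 (0.979) and Rcn3 (0.979), Snai1 by Igf1 (0.979), Ccdc80 (0.978) and Rnf144a (0.976), and Zeb2 by Gng11 (0.972), Rgs16 (0.961) and Dpt (0.957). For Zeb1 they were Gnb4 (0.973), Foxc2 (0.969) and Gjb5 (0.963), for Twist1 Gm2115 (0.988), P2ry12 (0.988) and Efemp1 (0.985), and for Twist2 Stmn2 (0.988), A530047J11Rik (0.988) and Efemp1 (0.981). For Cdh2 they were 4930503L19Rik (0.966), Ccl2 (0.963) and Clmp (0.963), and for Cdh1 Fam83h, Zfp729b and Cdc42ep3, each at 0.96. Those 11 points share arrays, and the genes named are the highest of all genes compared.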

How the data were processed

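RNA of FACS-isolated mouse mammary cells was hybridised to Affymetrix arrays. The values deposited by the authors are on a log2 scale, for 45141 probe sets on each of 28 arrays. R 2.14.0 is named per the submitters' processing notes; background correction and normalization are not given in the sources used here. Array medians were 4.40 to 4.50, and no further scaling was applied. Probe sets with several gene symbols (551) or none (15692) were left out, and 28689 of the remaining 28898 matched the reference by gene identifier. A gene was tested if above the 40th percentile of its array on at least 2 arrays of the fit.

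Models of group means (limma 3.58.1, R 4.3.3) used the 16 sorted arrays (13150 genes), the 12 tumour arrays (13244 genes) or all 28 arrays (13663 genes) for tumours against normal cells, where the normal level was the mean of the YFP groups of both times. On simulated data a difference of 2 on the log2 scale was recovered for 91% of 100 changed genes in the basal against luminal design at 8 weeks (12937 genes). A difference of 1 was recovered for 50%. For K5-PIK against K8-PIK tumours the shares were 83% and 54%, and for K8-PIK tumours against YFP luminal cells 95% and 72%. In these 3 designs 2.76%, 6.16% and 6.7% of calls were false, so a member differing by about 1 can be missed.

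The 10 members, the pathway and marker lists (at most 2 called genes named per list, direction and comparison) and the comparisons were chosen with earlier results of these data known.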

Additional observations from a re-analysis of the deposited data

Results flagged for a closer look

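Cdh1 in K8-PIK tumours was set apart by a single array. Replicate 3 had a Cdh1 level of 4.91 on the log2 scale, while the other 6 tumours lay between 7.96 and 9.21. The gap to the nearest tumour was 0.708 of the whole range, above the critical value of 0.568 for 7 samples in Dixon's test. By chance about 1 group in 20 exceeds that value, and it was the only one among the 10 genes.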

How the results depend on the processing

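Alternatives were another choice of arrays in the fit, no filter on dim genes, the mean of a gene's probe sets, a trended robust prior, a second quantile normalization, the replicate number as a block and each replicate left out. Of 33 called member results 13 kept their call under all of them and 0 turned sign. Counts of members in these fits, here and above, mostly stand without the share of all genes called in the same fit. That share can differ between fits, so a changed count describes no trait of the members. The second quantile normalization, the trended robust prior and the block kept 33 of 33, the fit of all 28 arrays 7 of 20 and the leave-one-out fits 138 of 178.

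With all 28 arrays in one fit, members called were 1 and 3 for YFP basal against luminal cells at 8 weeks and 10 months, 0 for K5-PIK against YFP basal cells, 0 for K8-PIK basal against luminal cells and 4, Twist2 among them, for p53-deleted against K8-PIK tumours. With only the groups of the contrast they were 0 for K8-PIK tumours against YFP luminal cells, 3 for K5-PIK tumours against YFP basal cells and 2 for K5-PIK tumours against K5-PIK basal cells. Without the filter 1 remained for K5-PIK against YFP basal cells. With the mean of probe sets 1 was called for YFP basal cells by time and 1 in each 10-month gap test. With the second quantile normalization 1 was called for YFP basal cells by time.

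With replicate number as a block, counts were 1 for YFP basal cells by time, 7 for K8-PIK tumours against YFP luminal cells, 5 against K8-PIK luminal cells, 2 for K5-PIK tumours against YFP basal cells and 3 against K5-PIK basal cells. Whether same-numbered arrays pair was not settled. Of 41 pairs between groups, 11 correlated over 0.1 in their deviations, with r of -0.14 to 0.38. The highest were YFP basal cells by time (0.38) and K5-PIK luminal against basal cells (0.34). Where both groups had 2 arrays, replicates 1 and 2 share one r by construction, so the pairs are not independent. The labels name no shared batch.

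Leaving out 1 replicate gave 2 to 5 and 4 to 6 members for YFP basal against luminal cells at 8 weeks and 10 months, 0 to 2 for K5-PIK against YFP basal cells, 2 to 3 for K8-PIK basal against luminal cells and 3 to 4 for K5-PIK luminal against basal cells. Among tumours it gave 0 to 5 for p53-deleted against K8-PIK, 7 to 9 for p53-deleted and 0 to 4 for K8-PIK against YFP luminal cells, and 0 to 1 for K8-PIK against K8-PIK luminal cells. Wherever members were called in p53-deleted tumours, Twist2 was among them. A lone remaining array is assumed to vary like the other groups. The cause of these changes was not tested.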
